A study of Mus musculus with 6 samples.

Results

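The matrix metalloproteases (MMPs) and their tissue inhibitors (TIMPs) examined here were 10 genes, Mmp2, Mmp3, Mmp10, Mmp11, Mmp13, Mmp14, Mmp19, Timp1, Timp2 and Timp3, taken by symbol from a table of exon counts for 24940 genes. The counts came from primary hepatic stellate cells of female C57BL/6JBomTac mice, the retinoid-rich perivascular cells of the liver, which on activation become myofibroblasts and lay down scar matrix. At 2 days after isolation, 3 samples were given obeticholic acid (OCA) at 10 µM, a synthetic derivative of chenodeoxycholic acid that activates the bile acid receptor FXR, and 3 received an equal volume of the vehicle DMSO, at a dilution of 1:1000 in the medium already on the cells, and all were harvested after 6 hours. The libraries of polyadenylated RNA are called OCA A, B and C and DMSO A, B and C after their replicate letters. Whether replicates of a group are separate animals or isolations is not stated in the labels, and p-values here therefore reflect only library-to-library spread, which may be technical. Culture on plastic itself activates stellate cells, and the vehicle cells were likewise at 2 days after isolation. Whether both groups came from the same isolation is not stated in the labels.

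MMPs are zinc-dependent endopeptidases that are mostly made as inactive proenzymes and, once cleaved, cut collagens, proteoglycans, growth factor precursors and each other. TIMPs block the active site of MMPs and hold matrix turnover in check, and TIMP3 also inhibits several membrane-bound ADAM and secreted ADAMTS proteases. In the liver, stellate cells are a main source of both, and the balance between them is a long-standing subject of fibrosis research, with TIMP1 rising as the cells activate.

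Column totals lay between 12260882 and 16336240 counts. Levels are given as CPM (counts scaled to a common library size) on TMM-scaled library sizes, and a gene is called changed at an adjusted p under 0.05 in edgeR's quasi-likelihood test over 12687 genes. OCA libraries had 276 genes called higher, 2.18% of those tested, and 384 called lower, 3.03%. Summed CPM of 14 stellate markers were 3908 to 4381 in DMSO and 3521 to 4273 in OCA libraries, against 2.47 to 3.77 and 2.80 to 7.21 for 10 hepatocyte markers, 6.36 to 13.5 and 8.67 to 8.89 for 10 macrophage markers, and 0.00 to 0.586 and 0.00 to 0.314 for 8 neutrophil markers, of which Elane and Retnlg were at 0 in all libraries. Among the stellate markers, Reln (means 547 CPM in DMSO and 325 CPM in OCA libraries) and Rgs5 (61.6 and 45.7 CPM) were called lower. Lhx2 (138 and 162 CPM) was called higher. By library, Reln had 632, 508 and 502 CPM in DMSO A, B and C. It had 261, 489 and 225 CPM in OCA A, B and C, so OCA B lay close to the DMSO libraries. Summed cholangiocyte markers, 7 genes, were 8.40 to 9.54 in DMSO and 11.3 to 14.8 CPM in OCA libraries, with the defining Krt7, Cldn4 and Cftr at 0 everywhere. Of the detected ones, Sox9 was called higher (means 2.54 and 7.68 CPM), while Spp1 (5.74 and 4.16 CPM) and Krt19 (0.654 and 0.719 CPM) were not called. The summed markers of portal fibroblasts and mesothelium, 10 genes with Thy1, Gpm6a and Cd200 at 0, were 5.58 to 6.93 and 3.38 to 4.98 CPM. The part of these cells in the results that follow was not tested. In bulk RNA, fewer cells of a type and less RNA per cell cannot be told apart.

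All 10 genes were tested, and 2 were called: Mmp11, which rose 1.48-fold, and Mmp10, which fell to 0.536 of its DMSO level. The other 8 were not called, and the median log2 fold change of the 10 genes was -0.02, against 0.00 for all tested genes. OCA libraries lay above all DMSO libraries in 2 of the 10 genes, Mmp11 and Timp1, where 11.6% of tested genes did so, and below all of them in 2, Mmp10 and Mmp13, where 11.3% did. The share of 1 called gene in 10 in each direction rests on single genes and is to be read against the percentages above.

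**Figure D1:**
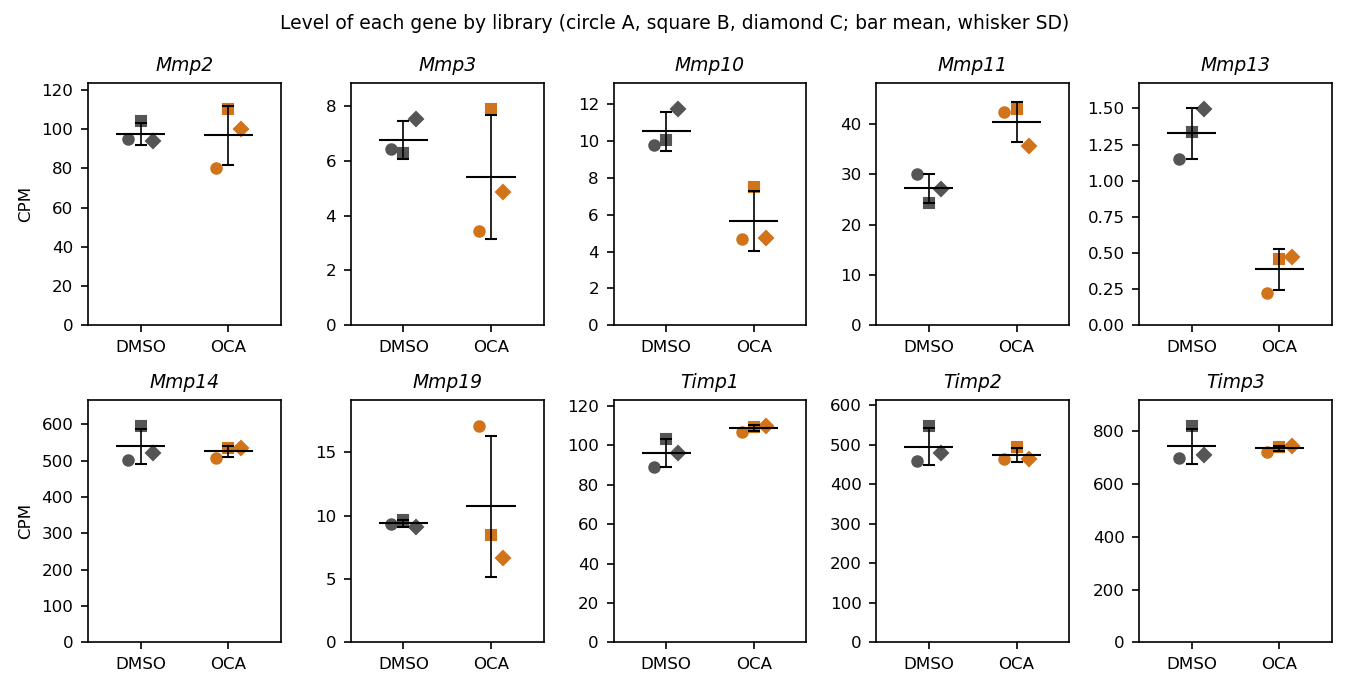
CPM of each of the 10 genes in each library, on linear axes that start at 0, with the group mean as a bar and the SD as a whisker. The OCA points of Mmp11 and Timp1 all lie above the DMSO points, those of Mmp10 and Mmp13 all lie below, and in Mmp19 a single OCA library, A, stands at 17.1 CPM.

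Mmp13, Mmp3 and Mmp10 lie close together on chromosome 9 and are classic targets of the transcription factor AP-1, while Mmp11 lies on chromosome 10. Their sequences just upstream of the start site are shown for description, and the genes were chosen with their counts known. Mmp10 was called lower and Mmp11 higher, while Mmp3 and Mmp13 were not called. A link between these letters and the differences in counts was not tested. Each run is the 120 bases before the start, 5′ to 3′ on the gene's own strand, from RefSeq on GRCm38.p6 (the mm10 build), and capitals mark the AP-1 heptamer (TGACTCA on either strand), the TATA box letters (TATAAA on the gene's strand) and, in Mmp11, the SP1 box (GGGCGG on either strand). The coordinates are chr9:7272394-7272513 for Mmp13, chr9:7445702-7445821 for Mmp3 and chr9:7502222-7502341 for Mmp10, all on the plus strand, and chr10:75932503-75932622 on the minus strand for Mmp11.
Mmp13: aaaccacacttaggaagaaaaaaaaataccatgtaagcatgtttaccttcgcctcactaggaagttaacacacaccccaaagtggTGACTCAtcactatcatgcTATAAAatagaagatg
Mmp3: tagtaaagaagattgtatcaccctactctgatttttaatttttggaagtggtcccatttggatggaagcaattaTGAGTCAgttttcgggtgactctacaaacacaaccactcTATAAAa
Mmp10: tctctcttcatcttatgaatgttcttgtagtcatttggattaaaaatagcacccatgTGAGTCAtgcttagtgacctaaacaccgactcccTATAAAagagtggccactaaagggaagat
Mmp11: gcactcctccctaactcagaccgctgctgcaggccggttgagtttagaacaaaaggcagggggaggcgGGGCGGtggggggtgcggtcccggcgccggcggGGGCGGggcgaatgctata
In Mmp13, Mmp3 and Mmp10 the AP-1 letters begin 35, 46 and 63 bases before the start, and the TATA letters 16, 7 and 29 bases before it.

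The table of promoters held windows for 8 of the 10 genes, all except Mmp2 and Mmp19, and motifs were searched in the 250 bases upstream of the start. The AP-1 heptamer was present in 3 of the 8 windows, those of Mmp3, Mmp10 and Mmp13, and in 4.46% of all 32851 windows. The same 3 windows held the TATA letters, and both motifs together occurred in 0.481% of all windows. The SP1 box was in the other 5 windows, those of Mmp11, Mmp14, Timp1, Timp2 and Timp3, and in 32.7% of all windows. An inverted repeat of AGGTCA with 1 base between the arms, the letters of the preferred FXR element, was in 0 of the 8 windows and in 2 of all windows. A single AGGTCA arm, found on one strand or the other in 4607 of the 32851 windows, lies in the printed Mmp10 sequence as tgacct, 49 bases before the start. Among the other family genes, windows of Mmp12, Mmp1b and Mmp1a also held such an arm. These are matches of letters and not mapped binding sites, and the search reads nothing beyond these windows.

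Among the stromelysins, Mmp10 (stromelysin 2), which degrades proteoglycans and laminin and can activate other pro-MMPs, was lower with OCA. Its transcript NM_019471 spans chr9:7502342-7510242 on the plus strand. It stood at 9.78, 10.0 and 11.7 CPM in DMSO A, B and C and at 4.69, 7.51 and 4.71 CPM in OCA A, B and C. Every OCA library was below every DMSO library, with OCA B the nearest to them. The mean fell from 10.5 ± 1.07 to 5.64 ± 1.62 CPM (SD, n = 3 each), a log2 fold change of -0.90 (SE 0.22, 95% interval -1.36 to -0.44, edgeR adjusted p = 0.0211). The call was lost when DMSO A (adjusted p = 0.0542), DMSO C (0.0963), OCA A (0.0940) or OCA C (0.0933) was left out, and held without DMSO B (0.0496) and without OCA B (0.00105), with the same direction each time.

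Mmp3 (stromelysin 1), which cleaves a wide range of matrix proteins and activates procollagenases, is the nearest relative of Mmp10 and lies upstream of it at chr9:7445822-7455974 (NM_010809, plus strand). It had 6.43, 6.27 and 7.55 CPM in the DMSO libraries and 3.45, 7.90 and 4.87 CPM in the OCA libraries. OCA A and C were below all DMSO libraries, while OCA B was the highest of the 6, so the groups overlapped. The log2 fold change was -0.32 (SE 0.27, 95% interval -0.88 to 0.24, adjusted p = 0.557), and the interval includes no change and ends just short of the Mmp10 estimate. Without OCA B it was -0.70 (adjusted p = 0.135).

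The transcripts of Mmp3 and Mmp10 share a longest identical run of 104 bases, and 140 of the 1673 windows of 50 bases in Mmp10 (8.37%) also occur in Mmp3, or 7.99% of the windows of Mmp3. The next longest run between any other pair of the 10 genes is 18 bases. The sources used here do not say how reads that fit both transcripts were counted, and the split of counts between Mmp3 and Mmp10 is uncertain to that extent. The ratio of Mmp10 to Mmp3, in CPM per kb of exon, was 1.62 ± 0.0410 in DMSO libraries and 1.13 ± 0.239 in OCA libraries (SD, n = 3 each). Per library it was 1.58, 1.66 and 1.62 in DMSO A, B and C against 1.41, 0.988 and 1.00 in OCA A, B and C, so each OCA library had less Mmp10 relative to Mmp3 than any DMSO library.

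Mmp13 (collagenase 3), the main rodent collagenase that cuts fibrillar collagen I, was the rarest of the 10 genes. Its transcript NM_008607 spans chr9:7272514-7283333 on the plus strand. The deposited counts were 19, 16 and 23 in DMSO A, B and C and 3, 6 and 6 in OCA A, B and C. All OCA libraries were below all DMSO libraries, at 0.225 to 0.471 CPM against 1.15 CPM or more. The summed counts of 15 and 58 give a depth-scaled ratio of OCA to DMSO of 0.290, with an exact 95% interval of 0.153 to 0.519 that covers counting error only. The edgeR log2 fold change was -1.76 (SE 0.55, 95% interval -2.91 to -0.61) and was not called (adjusted p = 0.0711). Mmp13 passed the filter on low counts, at 0.757 CPM in 3 libraries, only through its 3 DMSO libraries, with 0 OCA libraries over that level, so its place among the tested genes already depended on the direction of the difference.

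**Figure D2:**
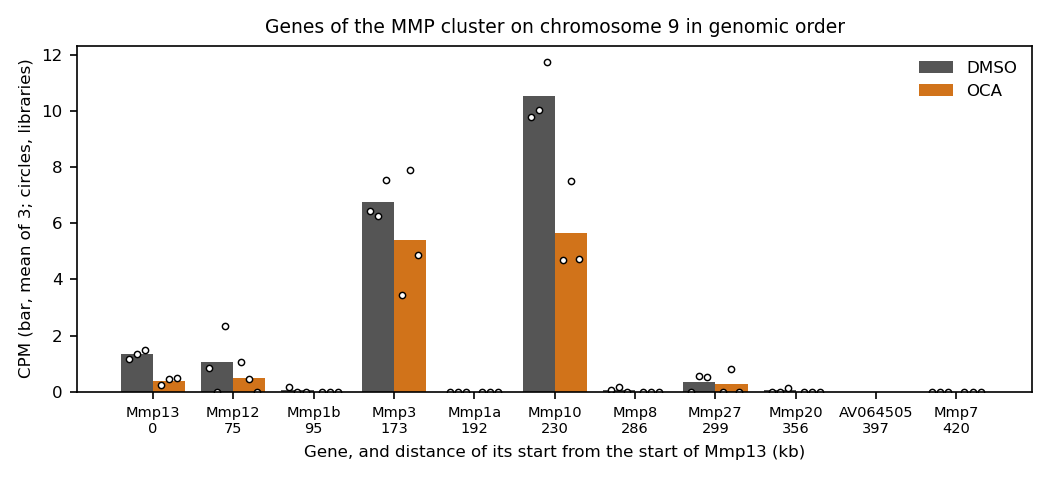
Genes of the MMP cluster on chromosome 9 in genomic order, with the distance of each gene's start from that of Mmp13 in kb. Bars are mean CPM in DMSO (grey) and OCA (orange), circles are the 3 libraries of each group (none drawn for AV064505), and Mmp3 and Mmp10 stand above the other genes in both groups.

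Mmp13, Mmp3 and Mmp10 belong to a cluster of 10 MMP genes and AV064505 that spans chr9:7272514-7699585, a stretch of 427 kb. In genomic order the genes are Mmp13, Mmp12, Mmp1b, Mmp3, Mmp1a, Mmp10, Mmp8, Mmp27, Mmp20, AV064505 and Mmp7. Only 5 of the 11, Mmp13, Mmp12, Mmp3, Mmp10 and Mmp27, had 10 or more counts over the 6 libraries. The AP-1 heptamer was in the upstream windows of 7 of the 10 clustered MMP genes, and both AP-1 and TATA letters were in 6, Mmp13, Mmp1b, Mmp3, Mmp1a, Mmp10 and Mmp7. Among the family genes outside the cluster, 0 of 12 with a window had both. Of these 6 genes, Mmp1a and Mmp7 had no count in any library and Mmp1b had 3 in all, so the shared letters went with counts near 0 as well as with those of Mmp3 and Mmp10.

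Mmp12, the macrophage metalloelastase, lies 74.9 kb downstream of the start of Mmp13 and had 1.05, 0.460 and 0.00 CPM in OCA A, B and C and 0.845, 0.00 and 2.34 CPM in DMSO A, B and C. The groups overlapped (log2 fold change -1.10, SE 0.87, adjusted p = 0.527), and without DMSO C the log2 fold change was 0.13. The 10 macrophage markers summed to 8.67, 8.89 and 8.71 CPM in OCA A, B and C and to 9.51, 6.36 and 13.5 CPM in DMSO A, B and C. The most abundant of them, Cd68 (3.94, 4.41 and 5.46 CPM in the OCA libraries) and Csf1r (0.938, 2.68 and 2.75 CPM), were lowest in OCA A, where Mmp12 was highest of its group, and both were present in the 2 libraries without Mmp12. The rarer Cd5l went the other way, with 2.10, 0.613 and 0.00 CPM in OCA A, B and C and 0.604, 0.00 and 1.46 CPM in DMSO A, B and C. Within each group Cd5l had the same order as Mmp12, and it was absent from the same 2 libraries. Marco was also highest in OCA A (1.39 CPM) and at 0.00 CPM in DMSO B. The part of macrophages in these Mmp12 values was not tested. Mmp27 was seen in 1 OCA library, B, at 0.805 CPM, and in DMSO B and C at 0.544 and 0.520 CPM, and was not tested.

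Mmp11 (stromelysin 3) is unlike the other stromelysins in that furin activates it inside the cell, it cuts classical matrix proteins poorly, and it cleaves serpins such as alpha-1 antitrypsin and a chain of collagen VI. Its transcript NM_008606 spans chr10:75923222-75932502 on the minus strand. It stood at 30.1, 24.4 and 27.2 CPM in DMSO A, B and C and at 42.5, 43.1 and 35.8 CPM in OCA A, B and C. The lowest OCA library was above the highest DMSO library. The mean rose from 27.2 ± 2.87 to 40.4 ± 4.06 CPM (SD, n = 3 each), a log2 fold change of 0.57 (SE 0.11, 95% interval 0.34 to 0.79, edgeR adjusted p = 0.0031). The call held when each library in turn was left out, with adjusted p between 0.00214 and 0.0304, and Furin itself, which was not called, had a log2 fold change of -0.05 (adjusted p = 0.811).

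**Figure D3:**
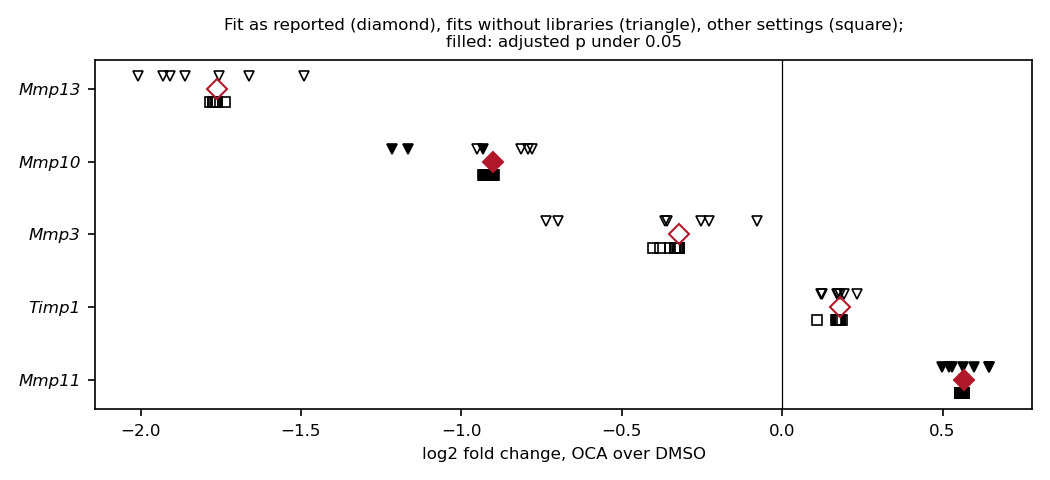
Log2 fold changes of 5 of the genes in the fit as reported (diamonds), in fits that leave libraries out (triangles) and under the other settings (squares), filled where the adjusted p was under 0.05. Mmp11 is filled throughout, Mmp10 is open in 4 of the fits that leave a library out, and Mmp13, Mmp3 and Timp1 are open throughout.

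The genes that make up the activation path of pro-MMP2 at the cell surface, Mmp14, Timp2 and Mmp2, showed little difference between the groups. Mmp14 encodes MT1-MMP, a membrane-anchored collagenase that, held in a complex with TIMP2, cleaves proMMP2, the precursor of gelatinase A. Mmp14 (NM_008608, chr14:54431598-54442456, plus strand) had 501, 595 and 522 CPM in the DMSO libraries and 509, 535 and 536 CPM in the OCA libraries. The OCA values lay inside the DMSO range, and the log2 fold change was -0.03 (95% interval -0.20 to 0.13, adjusted p = 0.846).

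Timp2 (NM_011594, chr11:118301061-118355411, minus strand) had 459, 547 and 480 CPM in the DMSO libraries and 464, 493 and 464 CPM in the OCA libraries. Its OCA values also lay inside the DMSO range (log2 fold change -0.06, 95% interval -0.23 to 0.10, adjusted p = 0.697). Mmp2 (NM_008610, chr8:92827297-92853421, plus strand), whose product digests denatured collagen and basement membrane collagen IV, had 95.1, 104 and 93.9 CPM in the DMSO libraries and 80.3, 110 and 99.9 CPM in the OCA libraries. The OCA values spread to both sides of the DMSO range, with OCA A the lowest and OCA B the highest of the 6 (log2 fold change -0.01, 95% interval -0.20 to 0.18, adjusted p = 0.962). For these 3 genes the intervals reach at most 0.23 in size on the log2 scale, below the changes of Mmp10 and Mmp11, and the sign of each estimate turned under at least 1 of the alternatives described in the closing section.

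Mmp19 encodes a secreted MMP with activity on basement membrane and cartilage proteins. Its transcript NM_001164197 spans chr10:128790910-128800827 on the plus strand. It had 9.38, 9.70 and 9.11 CPM in the DMSO libraries and 17.1, 8.47 and 6.67 CPM in the OCA libraries. OCA A was far above all others and OCA B and C were below all DMSO libraries. The log2 fold change was 0.19 (SE 0.25, 95% interval -0.33 to 0.72, adjusted p = 0.722), and it turned to -0.31 without OCA A (adjusted p = 0.506). In the GENCODE M21 annotation, 789 of its 3533 exon bases (22.3%) overlap exons of Tmem198b on the opposite strand. The sources used here give no strand setting, and reads from the overlap cannot be told apart. Tmem198b had 22.1, 23.0 and 22.5 CPM in the DMSO and 30.4, 24.2 and 22.1 CPM in the OCA libraries, with OCA A again the highest.

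Timp1, the inhibitor most often used as a marker of stellate cell activation, inhibits most MMPs but MT1-MMP only poorly. Its transcript NM_011593 spans chrX:20870166-20874737 on the plus strand. It stood at 88.8, 103 and 96.1 CPM in DMSO A, B and C and at 107, 109 and 110 CPM in OCA A, B and C. All 3 OCA libraries were above all DMSO libraries, with DMSO B close to them. The means were 96.0 ± 7.13 and 109 ± 1.58 CPM (SD, n = 3 each), a log2 fold change of 0.18 (SE 0.07, 95% interval 0.03 to 0.32). It was not called in edgeR's test (adjusted p = 0.158). The upper end of its interval lies under the lower end of that of Mmp11.

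Timp3 binds to the extracellular matrix and blocks the widest range of proteases of the family, the shedding enzyme ADAM17 among them. Its transcript NM_011595 spans chr10:86300412-86349505 on the plus strand. It had 699, 819 and 711 CPM in the DMSO libraries and 723, 739 and 743 CPM in the OCA libraries, all 3 inside the DMSO range (log2 fold change -0.01, 95% interval -0.18 to 0.15, adjusted p = 0.943). Of its 8144 annotated exon bases, 1733 (21.3%) overlap exons of Syn3, the synapsin gene that hosts it on the opposite strand. Syn3 had 140.5 counts over all libraries, against 61032.5 for Timp3. With no strand setting known, reads of the overlap cannot be told apart here either. The 8144 bases are those of all annotated exons, while the counted transcript has 4674, and its own overlap was not measured.

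DMSO B had the highest DMSO value in Mmp14, Timp2, Timp3, Timp1, Mmp2 and Mmp19, and the lowest in Mmp11 and Mmp3. In Mmp14, Timp2 and Timp3 the spread between vehicle libraries, with SDs of 49.5, 45.9 and 66.4 CPM, was wider than between OCA libraries, with SDs of 15.1, 16.9 and 10.6 CPM. Without DMSO B the log2 fold changes of these genes were 0.04, 0.01 and 0.06, with none called.

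Set on a scale of CPM per kb of exon, so that genes can be compared, Timp3 had the highest DMSO level of the 10 at 159 ± 14.2, followed by Mmp14 at 142 ± 13.1, Timp2 at 137 ± 12.7 and Timp1 at 109 ± 8.11. Mmp2 came next at 32.0 ± 1.82 and Mmp11 at 11.9 ± 1.26. Mmp10 stood at 6.11 ± 0.621, Mmp3 at 3.77 ± 0.389, Mmp19 at 2.88 ± 0.0907 and Mmp13 at 0.498 ± 0.0658 (SD, n = 3 each). In this order the DMSO ranges of Timp3 and Mmp14, and of Mmp14 and Timp2, overlapped, and those of the other neighbours did not. Timp3, Mmp14, Timp2 and Timp1 thus held the upper places, and the called genes Mmp11 and Mmp10 the middle ones.

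**Figure D4:**
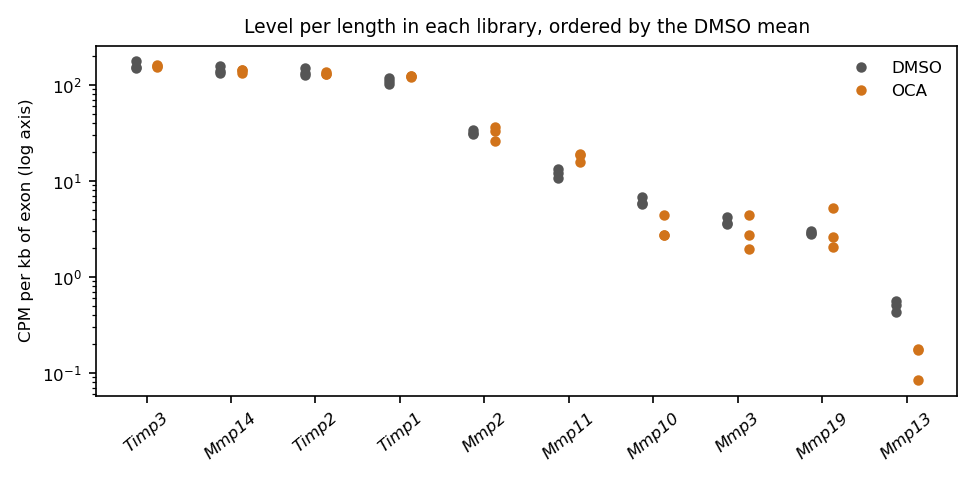
CPM per kb of exon of each gene in each library, on a log axis, in the order of the DMSO means (grey DMSO, orange OCA). Levels run from 159 for Timp3 to 0.498 for Mmp13 in DMSO, and the OCA points of Mmp10 fall among those of Mmp3 and Mmp19.

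Because the abundant genes differed little, so did the sums. The summed level of the 7 MMP genes was 200 ± 13.4 CPM per kb in DMSO and 198 ± 9.24 in OCA libraries, and that of the 3 TIMP genes was 405 ± 34.5 and 412 ± 7.24 (SD, n = 3 each). The ratio of the TIMP to the MMP sum was 2.03 ± 0.0361 in DMSO and 2.08 ± 0.0604 in OCA libraries, and the groups overlapped. Mmp14 alone made up 71.3% ± 1.71 of the MMP sum in DMSO and 70.2% ± 1.96 in OCA libraries. These sums weigh transcripts and carry no measure of proenzyme activation or inhibition.

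Of the other 17 family genes in the table, 6 passed the filter on low counts and 0 were called in edgeR's test, in DESeq2 or in limma-voom, while 1, Mmp24, had an unadjusted p under 0.05 in edgeR's test. Mmp24 (MT5-MMP, a membrane-type MMP best known from brain) had 18.6, 21.2 and 20.6 CPM in the DMSO and 17.2, 15.0 and 17.4 CPM in the OCA libraries. The OCA libraries were all below the DMSO libraries, but the difference was not called (log2 fold change -0.28, SE 0.13, adjusted p = 0.238). The membrane-type Mmp15, at 31.7 ± 3.99 and 30.8 ± 1.45 CPM, had a log2 fold change of -0.04 (adjusted p = 0.864). Mmp17 was at 9.37 ± 1.29 and 8.36 ± 0.992 CPM, Mmp23 at 5.54 ± 0.532 and 6.23 ± 0.618 CPM, and Mmp28 at 2.10 ± 0.560 and 2.12 ± 0.664 CPM in DMSO and OCA libraries. The remaining 10 genes had at most 9 counts over the 6 libraries, among them the gelatinase Mmp9 with 9, the neutrophil collagenase Mmp8 with 3 and Timp4 with 1.

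**Figure D5:**
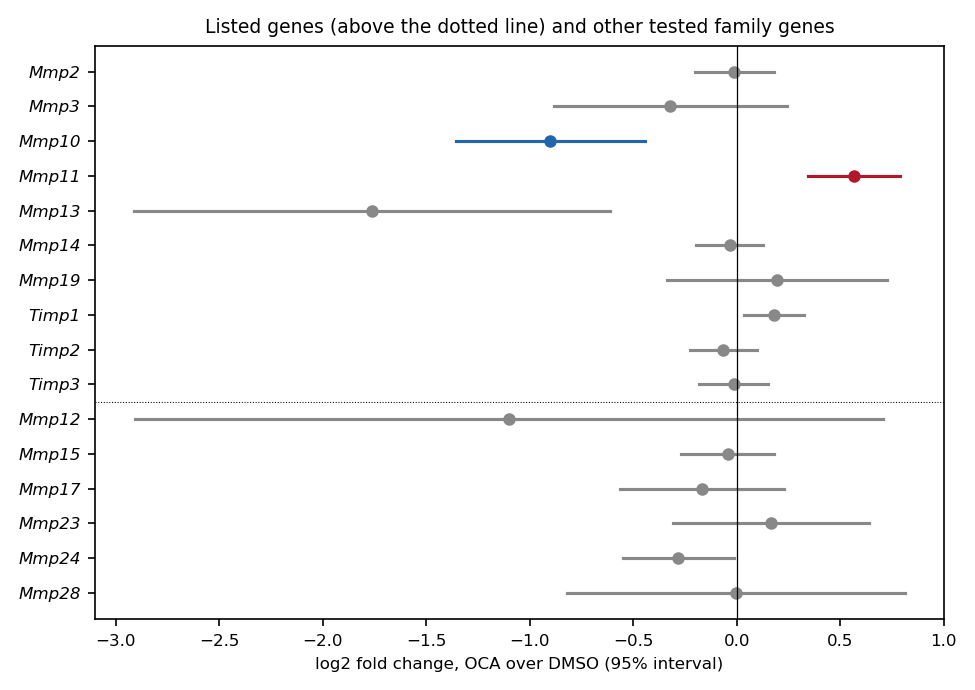
Log2 fold changes of OCA over DMSO with 95% intervals for the 10 genes and, under the dotted line, the 6 other family genes that were tested. Mmp10 (blue) and Mmp11 (red) are the called genes, and the intervals of Mmp13 and Mmp12 are the widest.

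Genes that act before or after the MMPs were counted from lists. Over all tested genes, 2.18% were called higher and 3.03% lower, and a single call in a list this small is no result about the list. Among 16 tested genes for activation, clearance and other inhibition of MMPs, 1 was called higher and 1 lower, with a median log2 fold change of -0.18. Plau, the urokinase that turns plasminogen into plasmin, an activator of pro-MMPs, was at 54.0 ± 0.569 CPM in DMSO and fell to 38.5 ± 2.87 CPM with OCA (adjusted p = 0.00148, log2 fold change -0.49, SE 0.08), a call that held under all 18 alternatives. Reck, which encodes a membrane-anchored inhibitor of Mmp2, Mmp9 and Mmp14, rose with OCA, to 101 ± 7.90 from 83.2 ± 5.51 CPM (adjusted p = 0.032, log2 fold change 0.29, SE 0.08), with OCA libraries higher in all 9 pairs. Leaving out OCA A, OCA B, DMSO A or DMSO C ended the Reck call, with adjusted p of 0.0658, 0.0843, 0.154 and 0.105.

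Among 15 tested ADAM and ADAMTS protease genes, 5 were called lower (Adam9, Adam12, Adam19, Adamts1 and Adamts2) and 1 higher, with 13 log2 fold changes below 0 and a median of -0.33. Over all tested genes, 3.03% were called lower and 2.18% higher. Adam12, at 87.4 ± 6.66 and 64.9 ± 7.23 CPM, had a log2 fold change of -0.43 (adjusted p = 0.00483), and the related disintegrin protease Adam19 one of -0.39 (adjusted p = 0.00201). Adamts1, an aggrecan- and versican-cleaving protease, had a log2 fold change of -0.39 (adjusted p = 0.00298). Adamts15, a secreted versican-cleaving protease, rose 10.5-fold, with a mean of 5.61 ± 1.06 CPM in DMSO and 58.2 ± 8.15 CPM in OCA libraries (adjusted p = 1.25e-11, log2 fold change 3.39, SE 0.14), against the direction of the other called genes of its list. The number of lower genes in this list was 10 without OCA B and 3 without DMSO A or OCA C.

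Of 19 tested matrix genes that MMPs cut, 4 were called lower and 0 higher, 18 of the log2 fold changes were below 0, and the median was -0.29. Over all tested genes, 3.03% were called lower and 2.18% higher. The called genes were Col1a2, Col5a2, Fn1 and Hspg2. In Fn1, which encodes fibronectin, the DMSO libraries had 220, 160 and 157 CPM and the OCA libraries 91.3, 168 and 72.5 CPM (log2 fold change -0.69, adjusted p = 0.0403). In Hspg2, which encodes perlecan, they had 691, 537 and 452 CPM against 245, 520 and 251 CPM (log2 fold change -0.72, adjusted p = 0.0383). In both, OCA B stood well above the other OCA libraries and inside the DMSO range. Of the 6 fits that leave out 1 library, only the one without OCA B kept the Fn1 call, the others giving adjusted p of 0.0701 to 0.266. The Hspg2 call was kept without OCA B or DMSO C and otherwise lost, at 0.0848 to 0.25, and DESeq2 and robust estimation ended the calls of Fn1 and Hspg2. For Col5a2 (adjusted p = 0.00617) the call was also lost with DESeq2 (0.102), with robust estimation (0.116) and in the fit without OCA A (0.0641). For Col1a2 (0.0173) robust estimation gave 0.058, and the fits without DMSO A, DMSO B, OCA C and OCA A gave 0.0662 to 0.122. The number of lower matrix genes was 12 without OCA B, 0 without OCA A and with robust estimation, and 1 with DESeq2 and without OCA C, DMSO A or DMSO B.

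Among 21 tested transcription factors known to act on MMP promoters, 2 were called lower and 0 higher, with a median log2 fold change of -0.02. For this list and the cytokine list below, the shares over all tested genes were 3.03% lower and 2.18% higher. The AP-1 member Fosl2 was lower with OCA, at 137 ± 9.42 against 168 ± 10.9 CPM (adjusted p = 0.0211, log2 fold change -0.29). An offset for transcript length (adjusted p = 0.0891) or leaving out DMSO A, OCA A or OCA C (0.0911 to 0.122) ended that call. None of the other AP-1 family genes in the list was called. Their log2 fold changes were 0.12 in Fos, 0.56 in Fosb, 0.05 in Fosl1, 0.18 in Jund and 0.35 in Atf3. Those of Jun and Junb were -0.13 and -0.19. The part of AP-1 in the Mmp10 difference was not tested. Ets2, an ETS factor, was at 109 ± 5.36 and 89.1 ± 5.33 CPM (adjusted p = 0.0216, log2 fold change -0.29), and its call ended without DMSO A, DMSO B or OCA C (0.0662 to 0.13). Of 17 tested cytokine and growth factor inputs, 2 receptors were called higher and 1 lower, with a median of -0.03. Il1r1, the signalling receptor of interleukin 1, which induces stromelysins in fibroblasts, rose (log2 fold change 0.32, adjusted p = 0.0106), as did the TNF receptor Tnfrsf1b (0.33, adjusted p = 0.00737), and both calls ended without DMSO C (0.0893 and 0.0693). Egfr fell (-0.33, adjusted p = 0.0276), but not past the threshold with the length offset (0.0566) or without DMSO A, DMSO B, OCA A or OCA C (0.0678 to 0.158).

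The genes nearest in pattern to the called members were found by the Euclidean distance of log2 CPM, centred on each gene's mean, over the 6 libraries and 12686 other genes. For Mmp11 they were Itpripl1 (distance 0.153), the Rac and Cdc42 exchange factor Arhgef7 (0.173) and the kinase gene Lrrk2 (0.173). For Mmp10 they were Gadd45g, a stress-inducible gene (0.248), Zc3h12a, which encodes the mRNA-degrading nuclease regnase 1 (0.255), and the matricellular gene Wisp1 (0.355). Zc3h12a was at 9.65 ± 0.570 CPM in DMSO and at 5.44 ± 1.04 CPM with OCA (SD, n = 3 each), close to the levels of Mmp10 in both groups.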

How the data were processed

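RNA of 6 libraries, 3 per group, was sequenced, and the authors deposited 1 table of unadjusted exon counts per gene, made with STAR and HOMER on mm10 per the submitters' processing notes. The deposited values come in steps of 0.5, whose origin the sources used here do not state, and are treated like expected counts. They were rounded to whole numbers before testing. The sources used here give neither the strand setting nor the treatment of multiply mapped reads. All count columns were used. OCA was compared with DMSO in edgeR 4.0.16 (R 4.3.3) with filterByExpr, TMM scaling and the quasi-likelihood test, two-sided, with Benjamini-Hochberg adjustment over 12687 genes, and 18 alternatives were run, with DESeq2 1.42.0 and limma 3.58.1 among them. Standard errors of log2 fold changes were derived from the F statistic. The script was tested on simulated data. In each library 3 counts equal 0.184 to 0.245 CPM of its total, and precision depends on these depths and on the spread between libraries.

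Members and lists were chosen with earlier results of these data known. The text names all 10 genes, other family genes with 10 or more counts, up to 4 called genes per list by smallest p and, for the member with the smallest p in each direction, the 3 genes nearest in pattern. Furin, Cd68, Csf1r, Cd5l, Marco, Reln, Rgs5, Lhx2, Sox9, Spp1, Krt19, Tmem198b, Syn3, Mmp8, Mmp9 and Timp4 were named for context outside that rule. So were Fos, Fosb, Fosl1, Jun, Junb, Jund, Atf3, Adam9, Adamts2, Mmp1a, Mmp1b, Mmp7, Mmp20 and AV064505. The markers Elane, Retnlg, Krt7, Cldn4, Cftr, Thy1, Gpm6a and Cd200 were also named, for their lack of counts.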

Additional observations from a re-analysis of the deposited data

How the results depend on the processing

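Mmp11 stayed called and higher in all 18 alternatives, with log2 fold changes from 0.50 to 0.65, and Mmp10 stayed lower in all 18 (-1.22 to -0.78) and called in 14. Timp1 and Mmp3 kept their direction and were called in 0 of 18 (0.11 to 0.23 and -0.74 to -0.08), and Mmp13 in 0 of 16, since DESeq2 and a filter of 5 CPM gave no adjusted p for it. The sign turned without DMSO B in Mmp2, Mmp14, Timp2 and Timp3, with an offset for transcript length in Mmp2, Mmp14 and Timp3, and without OCA A in Mmp2 and Mmp19, all uncalled. Over all genes, the calls were 378 higher and 227 lower with the length offset, against 276 and 384, and 703 lower without the filter on low counts, where more genes were tested. They numbered 605 lower without OCA B and DMSO A together. Leaving out 1 library at a time gave 161 to 363 higher and 104 to 758 lower genes, and 0 to 1 of the 10 genes lower. The cause of these differences was not tested. In these fits the lowest counts of lower genes came without OCA A or DMSO A and the highest without OCA B.

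With the replicate letter as a block, 306 genes were higher and 508 lower, and Mmp10 and Mmp11 stayed called. The letters were not taken as a pairing because the labels do not state one. Deviations of same-letter libraries correlated at 0.00, -0.04 and 0.05, and those of different letters at -0.08 to 0.08. With 3 counts worth 0.184 to 0.245 CPM, changes in the 10 family genes with at most 9 counts were not detectable at this depth.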
